A study of Homo sapiens with 6 samples.

Results

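Small nucleolar RNA host genes were examined in RNA-seq gene counts of human prostate cancer cells. The set holds the genes whose symbol starts with SNHG and a digit, together with GAS5, ZFAS1, EPB41L4A-AS1 and DANCR, and it has 32 members among the 59565 loci of the count table. The 3 Enz-R libraries came from an enzalutamide-resistant line of C4-2 cells, and the 3 parental libraries came from the C4-2 line itself. C4-2 is an established subline of the human prostate cancer line LNCaP, and enzalutamide is a drug given against prostate cancer. The labels do not say how the resistant line was derived, whether it is 1 clone, or whether its cells were in enzalutamide when collected. No label states separate cultures for the 3 libraries of a group, and the spread behind every p-value here may therefore be technical.

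A small nucleolar RNA (snoRNA) host gene makes a spliced transcript whose introns contain snoRNAs. After splicing, the intron is opened and trimmed until only the snoRNA with its bound proteins is left. Box C/D snoRNAs guide 2′-O-methylation and box H/ACA snoRNAs guide pseudouridylation, mostly of ribosomal RNA, while the small Cajal body RNAs (scaRNAs) act on the RNAs of the spliceosome. In many hosts the joined exons encode no long protein. Such exons are known to be degraded by nonsense-mediated decay, the pathway that removes transcripts with early stop codons. Many hosts belong to the 5′ TOP class, whose transcripts begin with a C followed by an unbroken run of pyrimidines, as ribosomal protein transcripts do. The counts below are of gene loci, which mostly means the spliced exons and not the snoRNAs.

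The members were chosen with this contrast in view, so their differences are given as a description, without p-values, and support nothing beyond themselves. Total counts were 23351394, 17429253 and 15673404 in the Enz-R libraries and 28247038, 19400321 and 19563706 in the parental libraries. Mitochondrially encoded genes took 14.5 to 15.5% of the counts in Enz-R, against 8.78 to 11.3% in parental. The 8 prostate luminal markers summed to 5272 to 5450 CPM (normalised counts per 1000000) in Enz-R, against 8713 to 9347 CPM in parental, and all 8 were detected. Summed over 3 markers each, neuroendocrine markers were at 4.93 to 6.08 CPM in Enz-R and 2.60 to 3.07 CPM in parental, and leukocyte markers were at 1.29 to 1.60 CPM in Enz-R and 0.601 to 0.927 CPM in parental. Endothelial markers were at 0.582 to 1.00 CPM in Enz-R and 4.60 to 6.25 CPM in parental. The neuroendocrine sum was nearly all SYP, at 5.24 CPM in Enz-R and 2.33 CPM in parental, while CHGA was at 0.0977 CPM in Enz-R and 0.421 CPM in parental and INSM1 was at 0 in Enz-R. Likewise CD68 made up most of the leukocyte sum and VWF most of the endothelial sum. Basal markers were at 3.18 to 3.24 CPM in Enz-R and 3.52 to 4.73 CPM in parental, and fibroblast markers were at 1.35 to 1.94 CPM in Enz-R and 1.37 to 1.90 CPM in parental. No marker was at 0 in all 6 libraries, and the part of any of these in the values below was not tested.

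The transcript starts of the members are shown first, because the pyrimidine run of the TOP class is read there. Sequences are from RefSeq on GRCh38.p14, which has a promoter entry for 28 of the 32 members, and each gives 25 bases before the start and 25 from it, on the gene's strand. Capitals mark the C or T run that begins at the start base. The first set holds members with such a run of at least 4 bases. SNHG32 is at chr6:31834891-31834940 on the plus strand, SNHG5 at chr6:85678709-85678758 on the minus strand, and SNHG19 at chr16:2155334-2155383 on the minus strand. ZFAS1 is at chr20:49278617-49278666 on the plus strand, SNHG12 at chr1:28581849-28581898 on the minus strand, and SNHG4 at chr5:139274076-139274125 on the plus strand.
SNHG32: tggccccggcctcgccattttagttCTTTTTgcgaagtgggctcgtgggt
SNHG5: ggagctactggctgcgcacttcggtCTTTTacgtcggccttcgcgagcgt
SNHG19: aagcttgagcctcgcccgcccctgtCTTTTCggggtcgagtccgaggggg
ZFAS1: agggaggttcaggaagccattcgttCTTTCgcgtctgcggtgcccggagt
SNHG12: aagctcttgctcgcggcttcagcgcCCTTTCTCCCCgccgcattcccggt
SNHG4: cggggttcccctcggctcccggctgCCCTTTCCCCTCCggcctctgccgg

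The second set has no such run at the RefSeq start base and is shown for contrast, since it holds members with large counts or large differences. GAS5 is at chr1:173869021-173869070 on the minus strand, SNHG29 at chr17:16438962-16439011 on the plus strand, and SNHG30 at chr17:35568089-35568138 on the plus strand. EPB41L4A-AS1 is at chr5:112160501-112160550 and SNHG14 at chr15:24823583-24823632, both on the plus strand. The RefSeq starts of GAS5 and SNHG14 lie upstream of the spans that GENCODE 29 gives these genes. The starts of those spans were not searched, so the lack of a run here says nothing about them.
GAS5: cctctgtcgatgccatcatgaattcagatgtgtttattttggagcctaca
SNHG29: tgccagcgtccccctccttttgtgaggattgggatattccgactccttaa
SNHG30: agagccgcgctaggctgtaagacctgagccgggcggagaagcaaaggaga
EPB41L4A-AS1: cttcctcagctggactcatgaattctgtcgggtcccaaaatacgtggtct
SNHG14: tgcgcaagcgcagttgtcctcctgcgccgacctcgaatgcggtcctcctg

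A C at the start base followed by at least 3 C or T was found in 9 of the 28 members, or 32.1%, namely SNHG4, SNHG5, SNHG7, SNHG12, SNHG18, SNHG19, SNHG26, SNHG32 and ZFAS1. The same pattern was found in 5.45% of 35116 promoter windows and in 57.6% of the 85 windows of ribosomal protein genes. This pattern was chosen after the sequences were seen. A looser pattern, a C followed by at least 4 C or T anywhere from 10 bases before to 10 after the start, was found in 15 members (53.6%), 29.4% of all windows and 72.9% of ribosomal protein windows. A run of at least 8 C or T within 20 bases of the start was found in 8 members (28.6%), 17.8% of all windows and 75.3% of ribosomal protein windows. SNHG29, shown above without a run at its start base, held both this run and the looser pattern, and SNHG14 held the looser pattern. These patterns can overlap each other. The E-box CACGTG, the core sequence bound by MYC and related factors, was searched on both strands of the window from 250 bases before to 50 after the start. It was found in SNHG7 and SNHG30 (7.14%), and in 7.26% of all windows. A match is a description of these letters and not a binding or control site.

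Host gene transcripts were mostly more abundant in Enz-R. Of the 32 members, 30 had enough counts to be tested with edgeR's quasi-likelihood test, and 26 of these were higher in Enz-R, 2 were lower and 2 were not called at an adjusted p under 0.05. Across all 19029 tested genes 32.4% were called higher and 32.3% lower, and nothing is read from the members' count against these shares, because the members were picked on this contrast. Calls were common here, with 64.8% of all genes passing. Among the 2889 other long noncoding RNA genes tested, 30.7% were higher and 20.5% lower. The median log2 fold change of the tested members was 0.61, within a range of -0.42 to 1.48, against 0.01 over all tested genes and 0.15 over the other long noncoding RNA genes. In 24 members all 3 Enz-R libraries lay above the 3 parental libraries, which was so in 34.2% of all tested genes, and in 2 members all 3 lay below, which was so in 34.7%. The groups overlapped in SNHG8, SNHG11, SNHG16 and SNHG26. Summed over the members, the level was 3382, 3222 and 3240 CPM in Enz-R and 2117, 2246 and 2225 CPM in parental, a ratio of 1.49. GAS5 and SNHG29 held 45.3% ± 0.776 of this sum in Enz-R and 37.4% ± 0.976 in parental (SD, n = 3 each). Without both genes, the sum was 1795 ± 67.7 CPM in Enz-R and 1375 ± 60.1 CPM in parental. In libraries of whole cultures, a change in all cells and a change in the share of some cells cannot be told apart. Under scaling by library totals 19 members were called higher, and SNHG1 (0.09), SNHG3 (0.15), SNHG4 (0.10), SNHG10 (0.28), SNHG22 (0.75), SNHG26 (0.49) and SNHG27 (0.46) lost their call at the log2 fold changes given.

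**Figure D1:**
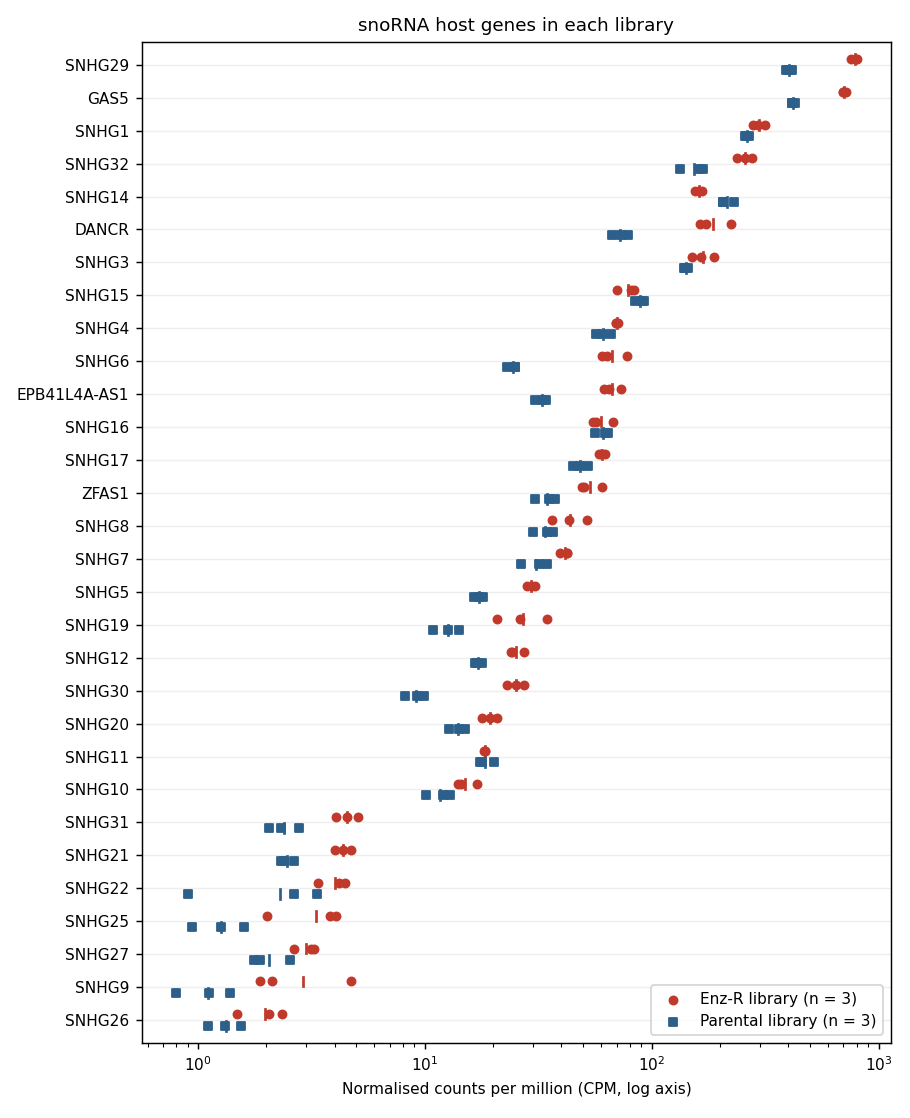
CPM of the 30 tested host genes in each library on a log axis, ordered by level, with the Enz-R libraries as circles above the parental libraries as squares and a short line at each group mean. SNHG29 and GAS5 lead, SNHG14 and SNHG15 have Enz-R to the left of parental, and the groups overlap in SNHG8, SNHG11, SNHG16 and SNHG26.

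Among the hosts of box C/D snoRNAs, 9 of 11 tested members were higher in Enz-R and 1 was lower, with a median log2 fold change of 0.74. SNHG29 (ENSG00000175061, chr17:16438822-16478678, plus strand), named LRRC75A-AS1 in GENCODE 29, contains SNORD49A, SNORD49B and SNORD65 and was the most abundant member. It was at 795, 756 and 801 CPM in Enz-R and at 390.0, 401 and 416 CPM in parental. The groups were far apart, with a log2 fold change of 0.96 ± 0.06 (SE), or 1.95-fold. SNHG30 (ENSG00000267321, chr17:35568109-35574843, plus strand), the host of SNORD7, was at 27.5, 23.1 and 25.2 CPM in Enz-R and at 8.22, 9.87 and 9.27 CPM in parental. Its 2.79-fold difference was the largest among the tested members. SNHG6 (ENSG00000245910, minus strand of chromosome 8), the host of SNORD87, was at 77.6, 60.2 and 63.4 CPM in Enz-R and at 25.1, 24.9 and 23.1 CPM in parental. Every Enz-R library of SNHG6 was above every parental one, by 2.76-fold on average. SNHG19 (ENSG00000260260, chr16:2154797-2155358, minus strand), a short host of SNORD60, was at 34.4, 26.4 and 20.8 CPM in Enz-R and at 12.6, 14.2 and 10.9 CPM in parental. It was 2.18-fold higher and had the widest Enz-R spread among members of at least 20 CPM, with a coefficient of variation of 25.1%.

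The other called C/D hosts differed less. SNHG5 (chr6:85660950-85678748, minus strand), which carries the SNORD50 pair, was at 29.6, 28.3 and 30.5 CPM in Enz-R and at 17.4, 18.0 and 16.5 CPM in parental, a 1.70-fold difference. SNHG32 (chr6:31834608-31839766, plus strand) carries SNORD48 and SNORD52 and is annotated as protein-coding in GENCODE 29, under the name C6orf48. It was at 259, 277 and 237 CPM in Enz-R and at 133, 161 and 169 CPM in parental, a 1.67-fold difference with no overlap. ZFAS1 (chr20:49278178-49295738, plus strand), which carries the SNORD12 family beside ZNFX1, was at 49.3, 50.4 and 60.2 CPM in Enz-R and at 30.5, 37.3 and 35.4 CPM in parental. It was 1.55-fold higher. SNHG1 (chr11:62851988-62855914, minus strand) contains the SNORD22 and SNORD25 to SNORD31 cluster, whose exons are known to be far less conserved than the snoRNAs. It was at 279, 294 and 316 CPM in Enz-R and at 257, 268 and 261 CPM in parental, only 1.13-fold higher (log2 fold change 0.18 ± 0.06 SE). The call on SNHG1 was lost without the third Enz-R library, where the log2 fold change was 0.13, or without any 1 parental library, where it was 0.16 to 0.19.

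SNHG14 and SNHG16 were the 2 C/D hosts of at least 20 CPM that were not higher. SNHG14 (ENSG00000224078, chr15:24978583-25419462, plus strand) is the long transcript of the imprinted Prader-Willi region, which carries the SNORD115 and SNORD116 arrays and runs antisense into UBE3A. It was at 166, 155 and 162 CPM in Enz-R and at 207, 231 and 206 CPM in parental. All Enz-R libraries were below the parental ones, with a log2 fold change of -0.42 ± 0.06 (SE), or 1.34-fold lower. SNHG14 is also the longest member, with 43324 bp of annotated exons, and the call was lost when GC content and exon length were regressed out of each library, where its log2 fold change was -0.09. SNHG16 (chr17:76557766-76565348, plus strand), the host of the SNORD1 group, was at 67.4, 56.9 and 54.9 CPM in Enz-R and at 56.4, 62.4 and 64.1 CPM in parental. The libraries of SNHG16 were interleaved, with a log2 fold change of -0.02 ± 0.08 (SE).

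All 3 members that carry both kinds of snoRNA were higher in Enz-R, with a median log2 fold change of 0.75. GAS5 (ENSG00000234741, chr1:173863900-173868882, minus strand) is known both as a TOP-class host degraded by nonsense-mediated decay and for an RNA fold that binds the glucocorticoid receptor. RefSeq lists 11 snoRNAs inside it, SNORA103, SNORD44, SNORD47 and SNORD74 to SNORD81. Its place in this class rests on that list, which was read without regard to strand. GAS5 was at 715, 698 and 694 CPM in Enz-R and at 415, 414 and 427 CPM in parental. The spread was narrow in both groups, and the log2 fold change was 0.75 ± 0.06 (SE), or 1.68-fold. SNHG12 (chr1:28578538-28583132, minus strand) was at 24.3, 24.0 and 27.5 CPM in Enz-R and at 17.8, 16.9 and 16.7 CPM in parental, a 1.47-fold difference. SNHG25 (chr17:64145970-64146476, plus strand), whose annotated exons span only 278 bp, was low, at 3.84, 4.06 and 2.01 CPM in Enz-R and at 0.940, 1.60 and 1.27 CPM in parental. The Enz-R libraries of SNHG25 were still all above the parental ones, by 2.68-fold.

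Among the hosts of box H/ACA snoRNAs, 9 of 11 were higher and 1 was lower, and the median log2 fold change was 0.38. DANCR (ENSG00000226950, chr4:52712404-52720351, plus strand) hosts SNORA26 and is known as an RNA that keeps progenitor cells from differentiating. It was at 223, 174 and 164 CPM in Enz-R and at 73.3, 78.3 and 66.8 CPM in parental. The lowest Enz-R library was well above the highest parental one, and the log2 fold change was 1.36 ± 0.10 (SE), or 2.57-fold. EPB41L4A-AS1 (ENSG00000224032, chr5:112160526-112164276, plus strand), the host of SNORA13, was at 73.5, 64.6 and 61.9 CPM in Enz-R and at 30.7, 34.1 and 33.3 CPM in parental. It was 2.05-fold higher. EPB41L4A, the gene it is named against, had only 14 counts over the Enz-R libraries and 16 over the parental libraries.

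The remaining abundant H/ACA hosts lay between 1.34-fold higher and 1.14-fold lower. SNHG7 (chr9:136721366-136728184, minus strand), the host of the SNORA17 pair, was at 42.3, 39.6 and 42.5 CPM in Enz-R and at 26.5, 34.5 and 31.9 CPM in parental, 1.34-fold higher. SNHG8 (chr4:118278709-118279823, plus strand), the host of SNORA24, was at 51.6, 43.1 and 36.2 CPM in Enz-R and at 30.0, 34.4 and 36.7 CPM in parental. SNHG8 was called 1.31-fold higher, although its lowest Enz-R library was below the highest parental one, and without the first Enz-R library its log2 fold change was 0.25 in place of 0.38. SNHG17 (chr20:38420588-38435353, minus strand), which contains the SNORA71 copies, was at 58.7, 59.6 and 62.3 CPM in Enz-R and at 45.1, 48.1 and 52.4 CPM in parental, 1.24-fold higher. SNHG3 (chr1:28505980-28510892, plus strand), whose SNORA73 snoRNAs are known to act in the cleavage of precursor ribosomal RNA, was at 189, 165 and 151 CPM in Enz-R and at 145, 140.5 and 139 CPM in parental. It was 1.19-fold higher, and its log2 fold change of 0.25 was 0.16 without the first Enz-R library. SNHG4 (chr5:139274102-139284899, plus strand), the host of SNORA74, was at 70.8, 69.9 and 69.8 CPM in Enz-R and at 57.1, 66.2 and 60.3 CPM in parental, 1.15-fold higher. The call on SNHG4 was lost without the first parental library (log2 fold change 0.14) or the third one (0.18).

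SNHG15 (ENSG00000232956, chr7:44983023-44986961, minus strand), the host of SNORA9, was the other member called lower. It was at 70.4, 80.8 and 83.6 CPM in Enz-R and at 84.2, 92.4 and 90.6 CPM in parental. The groups did not overlap but came close, and SNHG15 was 1.14-fold lower (log2 fold change -0.19 ± 0.07 SE). The call was lost without the first Enz-R library (log2 fold change -0.11), the second parental library (-0.17) or the third parental library (-0.18), and with GC content and exon length regressed out (-0.15). SNHG11, the host of SNORA60 and SNORA71E, averaged 18.4 ± 0.149 CPM in Enz-R and 18.4 ± 1.41 CPM in parental (SD, n = 3 each) and was not called. SNHG31 averaged 4.55 ± 0.506 CPM in Enz-R and 2.39 ± 0.368 CPM in parental. SNHG9, next to RPS2, was at 4.75, 2.12 and 1.88 CPM in Enz-R and at 1.39, 0.801 and 1.12 CPM in parental. Its log2 fold change of 1.41 ± 0.34 (SE) leaned on the first Enz-R library, without which it was 0.82.

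The 4 hosts of scaRNAs, SNHG10, SNHG20, SNHG21 and SNHG22, were all called higher, with log2 fold changes of 0.38 to 0.85. SNHG20, which overlaps SEC14L1, averaged 19.3 ± 1.46 CPM in Enz-R and 14.0 ± 1.13 CPM in parental (SD, n = 3 each). SNHG10, the host of SCARNA13, averaged 15.1 ± 1.66 CPM in Enz-R and 11.7 ± 1.42 CPM in parental, and its call was lost without the third Enz-R library (log2 fold change 0.29 in place of 0.38) or the first parental library (0.27). SNHG21 averaged 4.36 ± 0.346 CPM in Enz-R and 2.46 ± 0.171 CPM in parental. SNHG22 was at 3.38, 4.18 and 4.47 CPM in Enz-R and at 0.905, 3.36 and 2.64 CPM in parental. The low first parental library carried much of the difference in SNHG22, whose log2 fold change was 0.85 with it and 0.40, not called, without it. The call on SNHG22 was also lost without the second (0.82) or the third Enz-R library (0.77).

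The remaining members had low counts or none. SNHG27, for which neither annotation names a snoRNA, averaged 3.01 ± 0.318 CPM in Enz-R and 2.06 ± 0.429 CPM in parental (SD, n = 3 each). Its log2 fold change of 0.55 was not called when the first or the third library of either group was left out (0.45 to 0.52). SNHG26, the host of SNORD93, averaged 1.97 ± 0.439 CPM in Enz-R and 1.33 ± 0.219 CPM in parental. Its groups overlapped, and its log2 fold change of 0.59 was not called without the first or the second Enz-R library or the first or the third parental library (0.45 to 0.58). SNHG18, the host of SNORD123, had 17 counts over the Enz-R libraries and 3 over the parental libraries and was too low to test. SNHG28 had 0 counts in every library, which allows up to 3 counts per library.

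**Figure D2:**
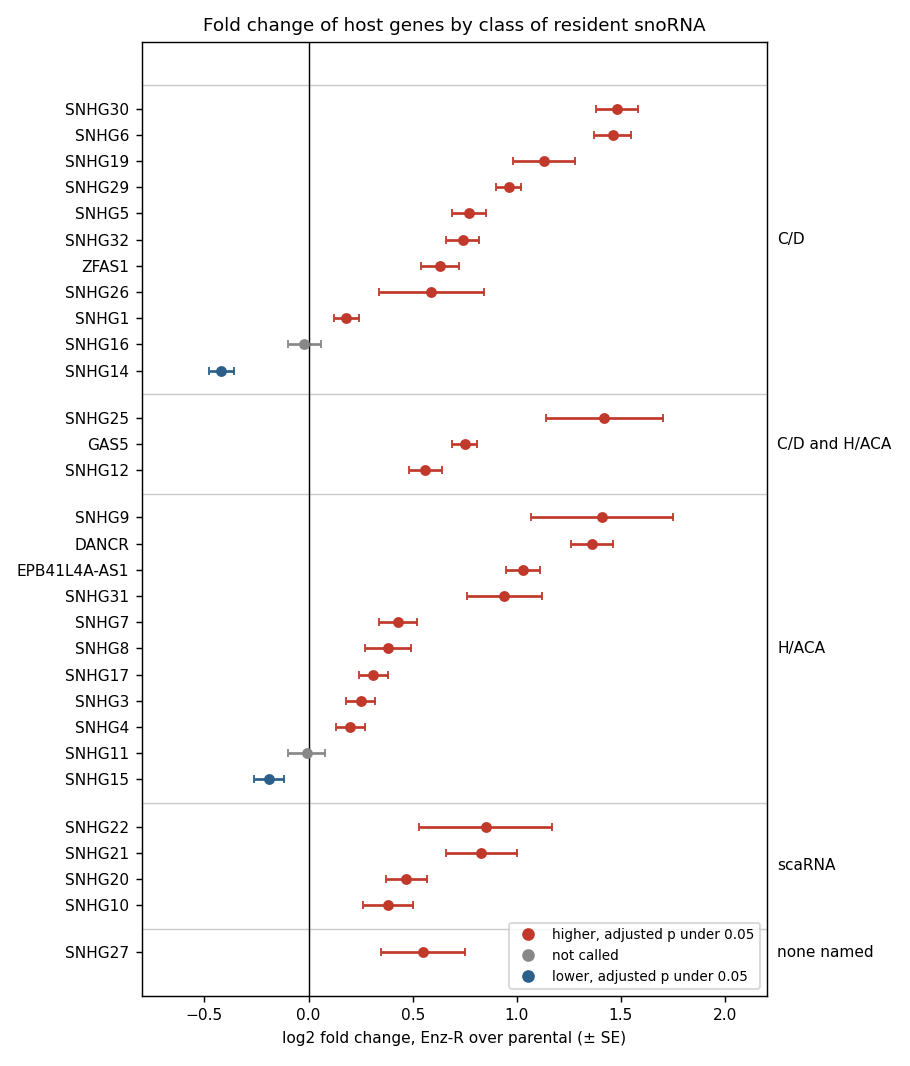
Log2 fold change of Enz-R over parental with its SE for the 30 tested host genes, grouped by the class of snoRNA inside them. Red points were called higher, blue lower and grey not called. The C/D hosts run from -0.42 (SNHG14) to 1.48 (SNHG30), the H/ACA hosts from -0.19 to 1.41, and the scaRNA hosts from 0.38 to 0.85.

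Members differed in transcript level by orders of magnitude, also per length. On the scale of CPM per kb of annotated exon, the level of SNHG29 was 209 in Enz-R and 107 in parental, that of GAS5 was 193 in Enz-R and 115 in parental, and that of SNHG32 was 143 in Enz-R and 85.7 in parental. SNHG19 and SNHG1 had close levels in Enz-R, at 79.6 and 78.9 CPM per kb. In parental they did not, with 36.7 CPM per kb for SNHG19 and 69.7 for SNHG1. SNHG14 had only 3.71 CPM per kb in Enz-R and 4.96 in parental, since its counts are spread over long exons. The coefficient of variation between libraries had a median of 9.0% in Enz-R and 7.79% in parental. The first Enz-R library was the highest of its group for 15 of the 30 tested members and the lowest for 6. The third Enz-R library was the highest for 11 and the lowest for 15. The first parental library was the lowest of its group for 18 and the highest for 5. The same shares over all tested genes were not computed, so no common lean of the members is read from this.

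Shorter members differed more than longer ones. The 15 tested members with the shortest annotated exons had a median log2 fold change of 0.85, with 15 higher and 0 lower. The 15 longest had a median of 0.31, with 11 higher and 2 lower. Length moved with the fold change among all genes too. Over the 5971 tested genes no longer than the member median of 2716 bp, the median was 0.24, with 38.8% higher and 18.8% lower, and over the 12362 longer ones it was -0.09, with 28.3% higher and 39.9% lower. With GC content and exon length regressed out, the members' median was 0.59, with 22 higher and 0 lower. The log2 fold change of SNHG7 was then 0.24 in place of 0.43, and the calls on SNHG8 (0.21), SNHG10 (0.28), SNHG22 (0.76) and SNHG27 (0.43) were lost, besides those on SNHG14 and SNHG15.

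Protein-coding neighbours were compared because many hosts overlap or share a start region with another gene. No source used here says that the kit marks strand, so reads from a host and from a neighbour on the other strand cannot be told apart where their exons overlap. Of the 31 genes that overlap a member or start within 1000 bp of it on the opposite strand, 21 were tested, and 8 were higher and 7 lower (background 32.4% and 32.3%). SEMA5A, 1 of the 8, passed the low-count filter only through Enz-R, where it is higher, and is given without a test. In 15 of the 20 pairs with both genes tested, the member's log2 fold change was above the neighbour's. In 7 pairs the member was called higher while the neighbour was called lower, and in 6 pairs both were called higher. The 20 pairs cover 17 members, some of them more than once. Because the members were picked on this contrast, nothing is read from these pair counts.

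The 7 tested pairs with opposite strands and starts within 1000 bp had the member higher in all 7. Since the members were picked on this contrast, nothing is read from their direction. The neighbour was higher in 2 pairs and lower in 5 (background 32.4% and 32.3%). ZBTB37, a zinc finger gene that starts 800 bp from GAS5, fell to 31.7 ± 1.79 CPM in Enz-R, against 60.3 ± 1.60 CPM in parental (SD, n = 3 each). Its log2 fold change was -0.93 ± 0.07 (SE), with an edgeR adjusted p of 1.29e-08 and all 3 Enz-R libraries lower. ACAA2, a mitochondrial fatty acid oxidation enzyme beside SNHG22, fell to 8.84 ± 0.147 CPM in Enz-R, against 14.2 ± 0.721 CPM in parental (log2 fold change -0.68 ± 0.10 SE, edgeR adjusted p = 4.01e-05). TRAF7, a ubiquitin ligase beside SNHG19, fell to 73.2 ± 0.917 CPM in Enz-R, against 93.2 ± 1.03 CPM in parental (log2 fold change -0.35 ± 0.06 SE, edgeR adjusted p = 6.82e-05). RPS2, the ribosomal protein gene that starts 99 bp from SNHG9, rose to 4697 ± 181 CPM in Enz-R, against 2687 ± 81.0 CPM in parental (log2 fold change 0.81 ± 0.07 SE, edgeR adjusted p = 1.80e-07). BARD1, the partner of BRCA1, beside SNHG31, also rose (log2 fold change 0.50 ± 0.06 SE, edgeR adjusted p = 2.63e-06). SLC3A2, the heavy chain of amino acid transporters beside SNHG1, was at 335 ± 15.1 CPM in Enz-R and 382 ± 19.9 CPM in parental (log2 fold change -0.19 ± 0.06 SE, edgeR adjusted p = 0.0192). The call on SLC3A2 was lost without the second Enz-R library or the third parental library, where its log2 fold change was -0.15. ZNFX1, an RNA helicase gene beside ZFAS1, was called lower at a log2 fold change of -0.17 (edgeR adjusted p = 0.0305). That call was lost without the first Enz-R library (-0.13), the second Enz-R library (-0.18) or the first parental library (-0.15), and the direction turned with GC content and exon length regressed out (0.02).

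UBE3A, the imprinted ubiquitin ligase gene that SNHG14 overlaps on the other strand, was at 199.6, 195 and 220.5 CPM in Enz-R and at 175, 170.1 and 177 CPM in parental. It was higher in 3 of 3 Enz-R libraries (log2 fold change 0.24 ± 0.06 SE, edgeR adjusted p = 0.00407), opposite in direction to SNHG14. The call was lost under scaling by library totals, where the log2 fold change was 0.14. SNRPN, whose 141 bp of overlap lie on the same strand as SNHG14, was not called (log2 fold change 0.24 ± 0.21 SE, edgeR adjusted p = 0.321). It turned on single libraries, since it was called higher without the first Enz-R library (0.46) and was near 0 without the third Enz-R library (-0.03) or the first parental library (0.02). With the replicate block it was called at 0.23. GLRX5, beside SNHG10, rose to 65.2 ± 8.28 CPM in Enz-R, against 43.6 ± 1.47 CPM in parental (edgeR adjusted p = 1.61e-05). MYO5B, which overlaps SNHG22, fell to 13.0 ± 1.07 CPM in Enz-R, against 23.8 ± 4.04 CPM in parental (edgeR adjusted p = 9.91e-06). RCC1, which spans SNHG3 on the same strand, was at 153, 136 and 141 CPM in Enz-R and at 149.9, 156 and 145 CPM in parental and was not called (edgeR adjusted p = 0.385). SEMA5A, a semaphorin gene that starts 125 bp from the untested SNHG18, had 57 counts in Enz-R and 11 in parental.

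**Figure D3:**
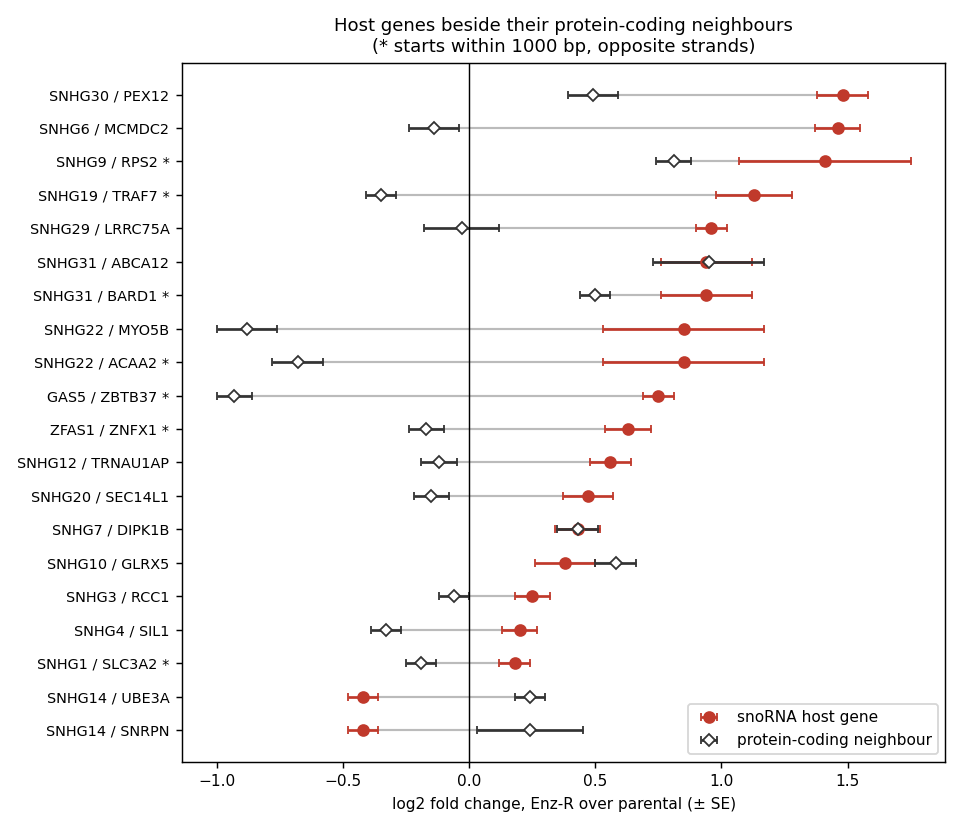
Log2 fold change of Enz-R over parental with its SE for host genes (filled circles) and their protein-coding neighbours (open diamonds) in the 20 pairs with both tested. Asterisks mark starts within 1000 bp on opposite strands. The host lies to the right of its neighbour in 15 pairs, and GAS5 (0.75) and ZBTB37 (-0.93) are among the widest apart. The hosts were picked on this contrast and the neighbours were not.

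The snoRNAs inside the members were read from the same table, but thinly. They are 59 to 275 bp long, 138 of the 144 below the read length of 150 bp, and the labels describe a kit for messenger RNA, so their counts give little on mature snoRNA. GENCODE 29 places 84 of these 144 entries in SNHG14. It places 0 in GAS5, so the 11 snoRNAs that RefSeq lists there are not among the entries. GAS5 is still among the hosts counted below. SNORD50A, which RefSeq lists in SNHG5, is missing from the entries as well. A count was present in 47 entries, and 97 were at 0 in every library. All entries together had 1631 counts in Enz-R and 1817 in parental, while the 32 hosts had 178870 counts in Enz-R and 151217 in parental. The SNORD116 array had 61 counts in Enz-R and 170 in parental over its 30 entries, and the SNORD115 array had 3 counts in each group over 49 entries.

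The snoRNAs with the most counts among these entries, SNORD104 and SNORA73B, are shown with their box motifs in capitals, as GENCODE 29 transcripts on GRCh38. SNORD104 lies in SNHG25 at chr17:64146083-64146152 and SNORA73B in SNHG3 at chr1:28508559-28508762, both on the plus strand. In the C/D snoRNA the capitals are box C, searched as TGATGA in the first 20 bases, and box D, searched as CTGA in the last 15. In the H/ACA snoRNA they are ACA followed by the last 3 bases. Only the given strand was searched. Of 278 annotated SNORD transcripts, 69.1% hold this box C and 92.4% this box D, and 76.2% of 147 SNORA transcripts hold the ACA.
SNORD104: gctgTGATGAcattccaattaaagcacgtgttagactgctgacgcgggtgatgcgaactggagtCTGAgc
SNORA73B: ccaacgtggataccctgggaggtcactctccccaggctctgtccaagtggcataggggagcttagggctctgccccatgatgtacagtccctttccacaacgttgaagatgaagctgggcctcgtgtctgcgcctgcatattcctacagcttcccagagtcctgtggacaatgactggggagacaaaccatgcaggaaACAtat

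Of the 144 snoRNA entries 10 passed the filter on low counts, but only 4 of these passed it in both groups. SNORD104 was the 1 of these 4 that was called. It had 451, 241 and 136 counts in the Enz-R libraries and 147, 113 and 82 in the parental libraries. Its level was 14.5 ± 5.91 CPM in Enz-R and 4.93 ± 0.845 CPM in parental (SD, n = 3 each), with a log2 fold change of 1.58 ± 0.23 (SE) and an edgeR adjusted p of 2.57e-05. Its host SNHG25 was higher as well, and both loci share positions. SNORA73B had 346 counts in Enz-R and 551 in parental and was not called (log2 fold change -0.31 ± 0.15 SE, edgeR adjusted p = 0.0788). It was called lower without the second parental library (-0.41), under scaling by library totals (-0.40) and with GC content and exon length regressed out (-0.55). Without the first parental library its log2 fold change was -0.19. SNORD99 in SNHG12 had 78 counts in Enz-R and 63 in parental and was not called (log2 fold change 0.67 ± 0.29 SE, edgeR adjusted p = 0.0556). It was called higher without the first parental library (1.03). SNORA13 in EPB41L4A-AS1 had 35 counts in Enz-R and 40 in parental and was not called (edgeR adjusted p = 0.693).

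The other 6 passed the filter through 1 group alone, the one in which they are higher, and their counts are given without a test. SCARNA13 in SNHG10 passed through Enz-R, with 47 counts in Enz-R and 30 in parental. The other 5 passed through parental. SNORD12B in ZFAS1 had 8, 3 and 6 counts in the Enz-R libraries and 47, 18 and 17 in the parental libraries. In SNHG17, SNORA71A had 36 counts in Enz-R and 81 in parental, SNORA71B had 56 in Enz-R and 198 in parental, and SNORA71C had 31 in Enz-R and 96 in parental. The SNORA71 genes are 1 family, and whether reads were shared among them in counting was not tested. SNORA60 in SNHG11 had 28 counts in Enz-R and 49 in parental.

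**Figure D4:**
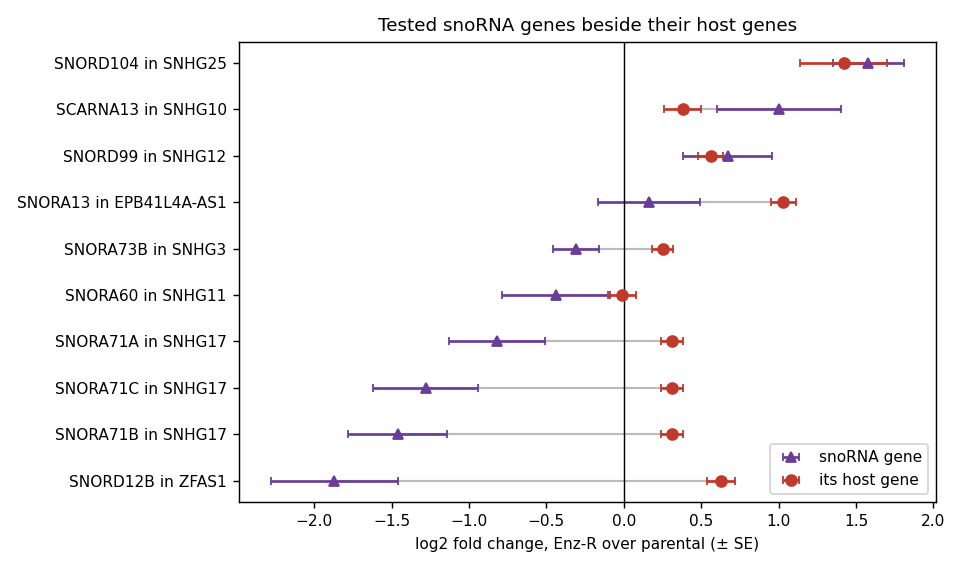
Log2 fold change of Enz-R over parental with its SE for the 10 tested snoRNA genes (triangles) and the host gene of each (circles). SNORD104 (1.58) lies beside SNHG25 (1.42). SCARNA13, SNORA60, SNORA71A, SNORA71B, SNORA71C and SNORD12B passed the low-count filter through 1 group alone.

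Other genes of the pathway were taken from lists, each given by its counts beside the background of 32.4% higher and 32.3% lower. The lists were chosen with earlier results of these data known, so their counts, directions and p-values are given as a description. The genes named below had the largest called changes, with all 3 Enz-R libraries on 1 side of the parental ones and a level of at least 5 CPM. Of 21 proteins of the snoRNA particle and its assembly, 6 were higher and 5 lower, with a median log2 fold change of 0.04. FBL, the methyltransferase of C/D particles, rose to 260.2 ± 23.2 CPM in Enz-R, against 189 ± 2.28 CPM in parental (SD, n = 3 each; edgeR adjusted p = 2.82e-05). SNU13, the C/D core protein that binds the box C/D fold, and NOP10, an H/ACA core protein, rose as well, by log2 fold changes of 0.53 and 0.57. NOP56, also a C/D core protein, fell to 129 ± 5.95 CPM in Enz-R, against 210.0 ± 1.16 CPM in parental (edgeR adjusted p = 7.64e-08). NOLC1, a chaperone of both particles, and NAF1, an H/ACA assembly factor, fell by 0.65 and 0.46 on the log2 scale.

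Nonsense-mediated decay genes were mostly lower, with 4 of 20 higher, 12 lower and a median log2 fold change of -0.27. SMG5, which recruits decay enzymes to UPF1, fell to 59.4 ± 3.93 CPM in Enz-R, against 164 ± 9.55 CPM in parental (SD, n = 3 each; log2 fold change -1.47 ± 0.07 SE, edgeR adjusted p = 1.09e-10). SMG6, the endonuclease of the pathway, fell to 12.3 ± 2.33 CPM in Enz-R, against 27.0 ± 1.06 CPM in parental (log2 fold change -1.14 ± 0.12 SE, edgeR adjusted p = 4.80e-07). CASC3, a subunit of the exon junction complex, fell by 0.77 on the log2 scale. UPF3A, SMG9 and DHX34 rose, by log2 fold changes of 0.69, 0.68 and 0.62. The part of these genes in the level of the hosts was not tested.

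In the list of intron lariat and snoRNA end processing, 6 of 20 genes were higher and 9 lower, with a median log2 fold change of -0.15. The exonuclease XRN2 fell to 36.1 ± 1.78 CPM in Enz-R, against 88.1 ± 1.45 CPM in parental (SD, n = 3 each; log2 fold change -1.29 ± 0.06 SE, edgeR adjusted p = 1.96e-10). The nuclear exosome nuclease EXOSC10 fell by 0.57 and the polymerase TENT4B by 0.46 on the log2 scale, while the exosome subunits EXOSC5 and EXOSC7 and the cofactor ZCCHC7 rose by 0.71, 0.56 and 0.46. Among 26 genes of ribosomal RNA synthesis and processing, 8 were higher and 7 lower (median 0.06). POLR1H, TAF1D and POLR1D rose by log2 fold changes of 0.81, 0.56 and 0.53, and TAF1A, DDX21 and POLR1A fell by 0.53, 0.42 and 0.40.

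Genes that control translation of the TOP class were 1 higher and 8 lower of 14, with a median log2 fold change of -0.22. MTOR, the kinase at the head of that control, fell to 93.7 ± 3.73 CPM in Enz-R, against 149 ± 6.32 CPM in parental (SD, n = 3 each; edgeR adjusted p = 1.63e-07). EIF4E and EIF4EBP2 fell by 0.66 and 0.58 on the log2 scale, and CNBP rose by 0.26. Genes that belong to the TOP class themselves, mostly translation genes, went the other way, with 14 of 22 higher, 4 lower and a median of 0.39. With GC content and exon length regressed out, 4 of the control genes were higher in place of 1. The part of gene length in the difference between these lists was not tested. TPT1 rose by a log2 fold change of 1.09 ± 0.07 (SE, edgeR adjusted p = 3.86e-09), and NACA rose by a log2 fold change of 1.06. EEF1A1, the most abundant of those named, was called lower at a log2 fold change of -0.23 (edgeR adjusted p = 0.0184), a call lost without the second parental library (-0.23) and with GC content and exon length regressed out (-0.10). EIF3L, a subunit of a translation initiation factor, was lower too (-0.66), and so was VIM (-1.25), an intermediate filament gene and not a translation gene.

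Protein-coding genes that host snoRNAs did not share one direction. Of 238 tested, 77 were higher and 99 lower, with a median log2 fold change of -0.07. The 28 ribosomal protein genes among them, a split made after the values were seen, had 27 higher, 0 lower and a median of 0.81. RPL39 rose to 607 ± 116 CPM in Enz-R, against 229 ± 36.9 CPM in parental (SD, n = 3 each; edgeR adjusted p = 1.51e-07), and RPL23 and RPLP2 rose by log2 fold changes of 1.18 and 1.11. The other 210 hosts had 50 higher and 99 lower, with a median of -0.17. WDR17 (1.98) and RPGR (1.64) were at the top of the named hosts and COBLL1 (-1.98), MYRIP (-1.74) and PRRC2B (-1.66) at the bottom, in log2 fold change. Among 29 long noncoding RNAs listed as hosting no snoRNA, 11 were higher and 9 lower, with a median of 0.06. NEAT1, the scaffold of paraspeckles, rose to 4178 ± 314 CPM in Enz-R, against 1651 ± 226 CPM in parental (edgeR adjusted p = 1.67e-08). MIRLET7BHG and DLEU2 rose by 1.10 and 0.89, and SCHLAP1, MIR22HG and KCNQ1OT1 fell by 1.06, 0.77 and 0.68 on the log2 scale.

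**Figure D5:**
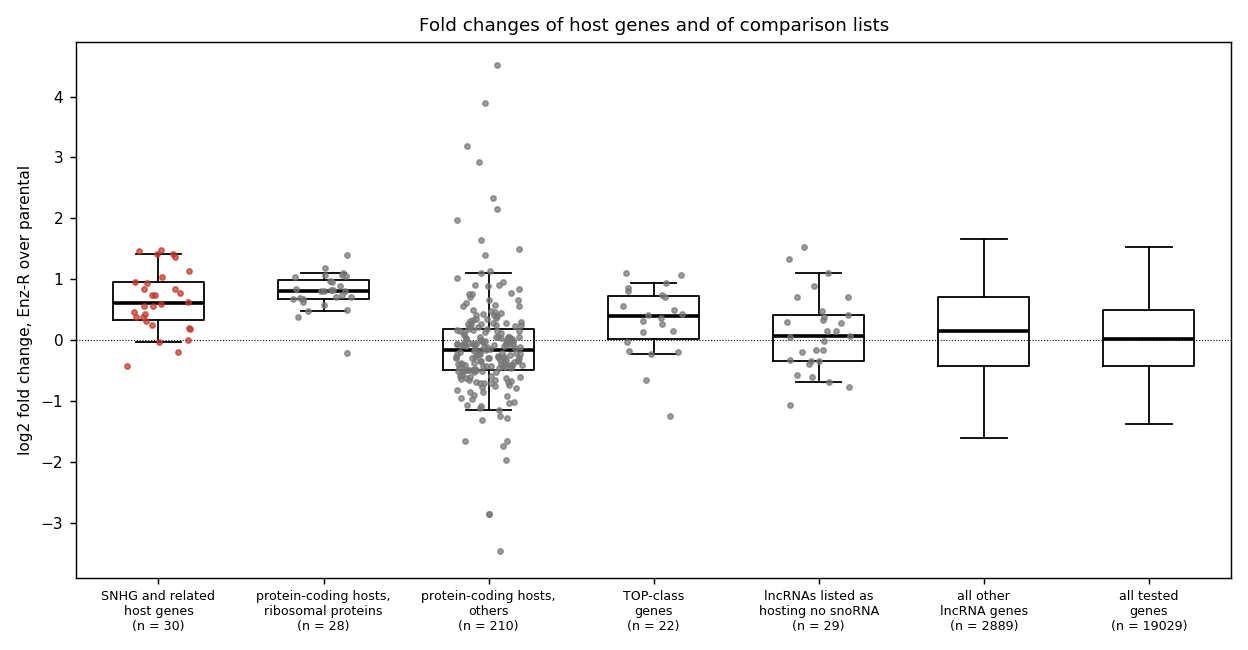
Log2 fold changes (Enz-R over parental) of the host genes and of comparison lists, with a point per gene for lists of under 300 genes, boxes from the lower to the upper quartile, a bold line at the median and whiskers at the 5th and 95th percentiles. The medians are 0.61 for the members, 0.81 for ribosomal protein hosts, -0.17 for the other protein-coding hosts, 0.39 for TOP-class genes and 0.01 for all genes.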

How the data were processed

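Total RNA was extracted with TRIzol and sequenced as 150 bp paired-end reads, per the labels. HISAT2 and the build GRCh38 are named in the submitters' processing notes. The sources used here do not give the counting tool, its annotation or its strand setting. The authors deposited raw counts per gene and library, used here as deposited. Identifiers were given current symbols from a list of gene names and positions from GENCODE 29. By current symbol 32 genes are members, and by GENCODE 29 names 29. The members and lists were chosen with earlier results of these data known.

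All genes were fitted with the quasi-likelihood test of edgeR 4.0.16 (R 4.3.3), after filterByExpr and TMM scaling and without covariates, with Benjamini-Hochberg adjustment over the 19029 tested genes and a threshold of 0.05. CPM use TMM-scaled totals. The SE is the absolute log2 fold change over the square root of F. The common biological coefficient of variation was 7.2%. Chi-square per degree of freedom was 4.19 to 10.3 between replicates, above counting error. Members with a mean of at least 20 CPM are given by library and lower ones mostly by means. Of each list the 3 largest called rises and falls of at least 5 CPM with non-overlapping groups are named. Some genes that this rule covers are not reported here. Resident snoRNAs come from GENCODE 29 and RefSeq. A member's class was read from GENCODE 29 on its own strand. Where GENCODE 29 gave no class, as for GAS5, it was read from RefSeq by position without regard to strand. The fit was checked on simulated data.

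Alternatives were DESeq2 size factors, library totals, no low-count filter, at least 50 counts in 3 libraries, DESeq2 1.42.0, limma-voom (limma 3.58.1), a replicate block, mitochondrial genes left out, ribosomal protein genes and members left out of the scaling, GC content and exon length regressed out by splines with 5 degrees of freedom (known for 96.3% of genes), GENCODE 29 names, and each library left out. Python 3.11.15, pandas 2.3.3, numpy 2.4.6 and matplotlib 3.10.9 were used.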

Additional observations from a re-analysis of the deposited data

How the results depend on the processing

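No member changed direction under any alternative where it was called, and 18 of the 30 tested members were higher under every one of the 16 alternative fits that gave them a value. The number of members called higher was 26, and was 19 with library totals, 22 with GC content and exon length regressed out, and 20 to 25 with a library left out. It was 23 with the DESeq2 test and 23 with at least 50 counts in 3 libraries. The DESeq2 test lost the calls on SNHG22 (log2 fold change 0.81), SNHG26 (0.58) and SNHG27 (0.55). The number called lower was 2, and was 1 with at least 50 counts in 3 libraries, 0 with GC content and exon length regressed out, and 1 to 2 with a library left out. The median log2 fold change of the members was 0.61, and was 0.52 with library totals (all genes -0.08), 0.59 with at least 50 counts, 0.56 with GENCODE 29 names and 0.51 to 0.71 with a library left out. Replicates that share a number did not deviate together, with correlations of 0.049, -0.008 and 0.011, and with the replicate block 25 members were higher and 2 lower, at a median of 0.61. Of the snoRNA genes inside members, 2 were called higher, and 1 with library totals, at least 50 counts, DESeq2 or GC content and exon length regressed out, 3 with limma-voom or the replicate block, and 1 to 2 with a library left out. The 4 lower ones, which all passed the low-count filter through parental alone, were 8 with no filter and 1 with at least 50 counts. SCARNA13, among the 2 higher ones, passed through Enz-R alone, so nothing is read from these snoRNA counts. With GC content and exon length regressed out, 4 genes of TOP control were higher (1 to 2 with a library left out), 5 of lariat and end processing were lower, 4 of the long noncoding RNAs without snoRNAs were lower, and ZNFX1 turned to 0.02. The cause of these differences was not tested. Low counts limit SNHG9, SNHG22, SNHG25 to SNHG27 and the snoRNA genes.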
